A study of Zea mays with 12 samples.

Results

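RADIALIS (gene 100281018) is a maize gene that the deposited tables describe as a putative MYB DNA-binding domain superfamily protein. It was 1 of 37385 genes listed and was followed through root libraries from plants short of nitrogen (N), phosphorus (P) or potassium (K) and from control plants. It was selected on its FPKM (fragment counts corrected for transcript length and library depth) in these same libraries, for the size of its difference between deficient and control roots. Its own levels are therefore given as a description, with no test. Total RNA came from roots of 40-day-old plants that all carry the label inbred line DengHai605. Of the 12 libraries, 3 are labelled nitrogen deficiency, 3 phosphorus deficiency, 3 potassium deficiency and 3 control, with N, P and K at normal levels. The replicate labels 1_3, 4_6 and 7_9 are not tied to separate plants by the sources, and the supply levels and the number of plants per library are not given there. A p-value below therefore measures only the spread between these libraries, which may be technical.

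The gene name comes from snapdragon (Antirrhinum majus), in which RADIALIS encodes a small protein with a single MYB-related domain and helps to set the upper, dorsal side of the flower. There it opposes DIVARICATA, a larger MYB-related protein that marks the ventral side, by competing for the partner proteins that DIVARICATA needs to act on its targets. In the deposited annotation the maize gene carries the terms nucleus, DNA binding and regulation of transcription, and its description goes no further than the MYB domain.

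Each library's whole read counts were worked back from the authors' group means, and they summed to 16800350 to 17571098 reads in N deficiency, 14962330 to 16348129 in P deficiency, 17042259 to 17980271 in K deficiency and 17843853 to 18465979 in the control. All detected genes were recovered in the control, whereas a small number of abundant genes were not in the deficient groups. The sums of the deficient groups are therefore low, by an amount that was not measured. Of a list of root markers, rth3, a root hair gene, was the only one matched, and it had 65.8 to 77.3 FPKM in N deficiency, 50.7 to 68.7 in P deficiency, 71.0 to 99.4 in K deficiency and 82.3 to 107.7 in the control. A list of 15 green-tissue genes (chlorophyll-binding and carbon-fixation proteins) summed to 5.44 to 9.12 FPKM per library in N deficiency, 10.997 to 15.0 in P deficiency, 12.6 to 16.1 in K deficiency and 18.9 to 36.3 in the control. None of the 15 was at 0 in all 12 libraries (0 of 15), but several were barely detected. LOC100282021, for example, had 1 read in N-deficient library 4_6 and 0 in every other library. The sum over the 15 was lower in every deficient library than in every control library. Its largest part in the control was LOC100191715, a chlorophyll a-b binding protein, which averaged 18.8 FPKM there. That gene averaged 2.30 FPKM in N, 6.70 in P and 7.07 in K deficiency. Not all members fell, and ssu1, a carbon-fixation gene, averaged 4.03 FPKM in K deficiency, against 1.42 in the control. The part of these genes in the RADIALIS difference was not tested. In bulk root RNA, fewer cells of a type and less RNA per cell cannot be told apart.

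RADIALIS was barely detected in control roots and was among the better expressed genes of N- and P-deficient roots. In N deficiency it had 30.0, 29.3 and 36.7 FPKM in libraries 1_3, 4_6 and 7_9. In P deficiency the values were 23.2, 21.3 and 23.6 FPKM. In K deficiency they were 3.68, 2.26 and 1.31 FPKM, and in the control 0.421, 0.787 and 0.560 FPKM. The 4 groups did not overlap, and stood in the order N deficiency, P deficiency, K deficiency and control. The group means were 32.0 ± 4.12 FPKM in N deficiency, 22.7 ± 1.24 in P deficiency, 2.42 ± 1.19 in K deficiency and 0.589 ± 0.185 in the control (SD, n = 3 each). Within a library, the share of the 24311 tested genes (those with at least 0.5 FPKM in at least 3 of the 12 libraries) that lay below RADIALIS was 84.1% to 87.6% in N deficiency, 78.4% to 80.8% in P deficiency, 16.2% to 32.8% in K deficiency and 5.70% to 11.8% in the control.

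**Figure D1:**
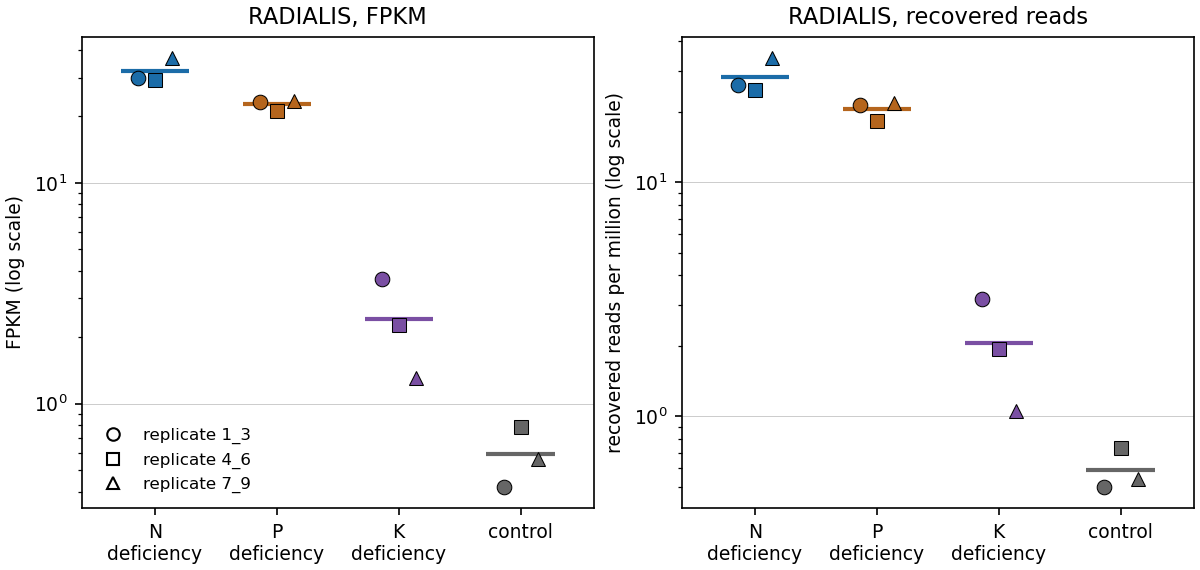
RADIALIS level in each of the 12 libraries on log axes, as FPKM (left panel) and as recovered reads scaled to library depth (right panel), with N, P and K deficiency and the control from left to right; points are libraries, their shape gives the replicate label, and bars are group means. The N-deficient libraries lie at 29.3 to 36.7, the P-deficient at 21.3 to 23.6, the K-deficient at 1.31 to 3.68 and the control libraries at 0.421 to 0.787 FPKM, and the order of groups is the same in both panels.

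The recovered reads show how much sequence lies behind these values. N-deficient libraries held 456, 424 and 570 RADIALIS reads, summing to 1450 (exact Poisson 95% interval 1376.3 to 1526.6). P-deficient libraries held 351, 288 and 325, summing to 964 (904.1 to 1026.8). K-deficient libraries held 57, 33 and 18 reads, summing to 108 (88.6 to 130.4), and control libraries 9, 13 and 10, summing to 32 (21.9 to 45.2). Intervals cover counting error only. Scaled to each library's recovered depth and given as RPM, each library's reads counted per 1000000, the means were 28.2 ± 4.96 RPM in N deficiency, 20.5 ± 1.93 in P deficiency, 2.05 ± 1.06 in K deficiency and 0.590 ± 0.122 in the control (SD, n = 3 each). On this scale the groups again did not overlap, and library 7_9 was the highest of N deficiency on both scales.

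The control level rests on few reads, and 1 read was worth less FPKM there than elsewhere. A recovered read stood for 0.0644 to 0.0690 FPKM in N deficiency, 0.0661 to 0.0738 in P deficiency, 0.0645 to 0.0728 in K deficiency and 0.0467 to 0.0606 in the control. Folds by FPKM are accordingly somewhat larger than folds by reads. Mean FPKM was 54.3-fold higher in N deficiency than in the control, 38.5-fold higher in P deficiency and 4.10-fold higher in K deficiency. By RPM the same folds were 47.9, 34.7 and 3.48, which lean high because only the deficient depth sums lack some genes. The authors' deposited table gives 46.2-fold for N, 31.7-fold for P and 3.21-fold for K deficiency against the control.

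Set library against library, the smallest fold in FPKM between any N-deficient and any control library was 37.2, between any P-deficient and any control library 27.0, and between any K-deficient and any control library 1.66. The K-deficient values were the most scattered, with library 1_3 the highest and 7_9 the lowest. Its coefficient of variation over 3 libraries was 49.3%, against a median of 20.7% among 6363 tested genes whose K-deficient mean lay within 2-fold of it, and 88.0% of those genes varied less. In P deficiency RADIALIS varied little by FPKM, at 5.47% against a median of 13.9% among 6061 such genes, 11.8% of which varied less. By RPM its spread there was wider for its mean, at 20.5 ± 1.93 RPM (SD). In N deficiency the coefficient was 12.9% against a median of 13.3% (4746 genes), and in the control 31.4% against 37.1% (3185 genes).

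Between deficiencies, RADIALIS was 1.41-fold higher in N than in P deficiency by mean FPKM, and the closest pair of libraries still differed 1.24-fold. N deficiency exceeded K deficiency 13.2-fold and P deficiency exceeded K deficiency 9.38-fold. The N and P groups were the neighbours in level nearest to each other, and by RPM they stood 1.14-fold apart at their closest libraries.

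Placed beside all other genes, the RADIALIS differences were among the largest in N and P deficiency. On the log2(FPKM + 1) scale, which compresses differences at low levels, the difference was 4.37 for N deficiency against the control, 3.90 for P deficiency and 1.05 for K deficiency. It took place 6 of 24311 in N deficiency, place 6 in P deficiency and place 644 in K deficiency, counting from the largest positive difference. By the plain ratio of mean FPKM, over 24287 tested genes with a control mean above 0, it took place 14 in N, 14 in P and 356 in K deficiency. Each comparison uses the same 3 control libraries. As background, limma called 19.0% of the tested genes in N deficiency, 23.4% in P deficiency and 8.72% in K deficiency (adjusted p of 0.05 or less by the Benjamini-Hochberg method). Every deficient library lay above every control library for 17.7% of tested genes in N, 21.2% in P and 16.8% in K deficiency, so that separation from the control by itself was common.

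**Figure D2:**
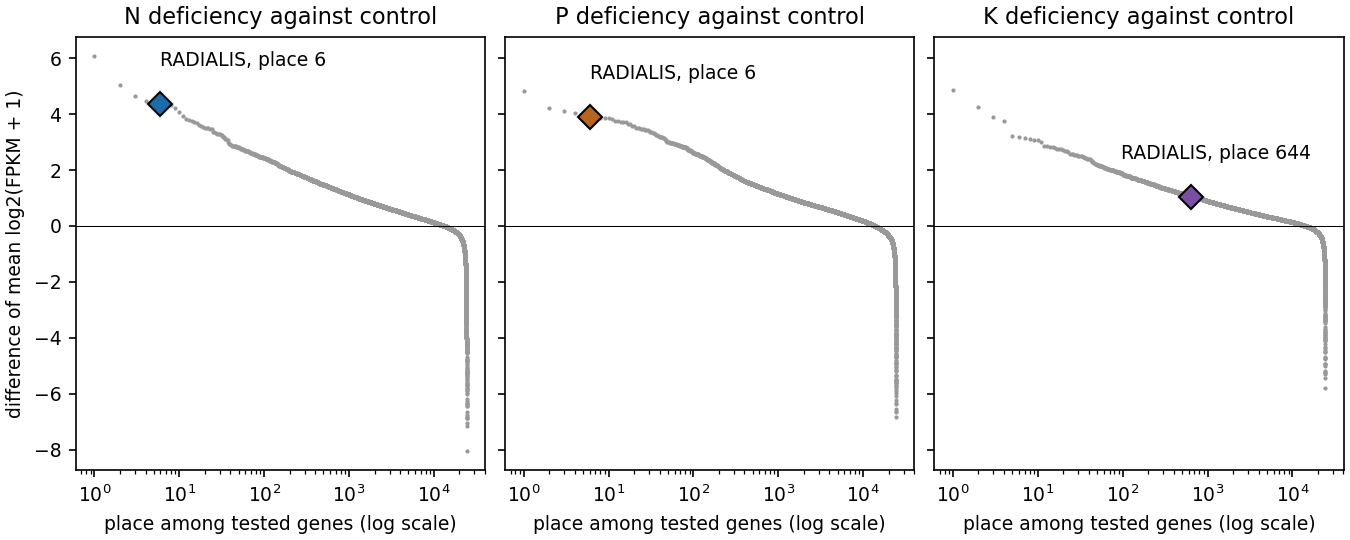
Difference of mean log2(FPKM + 1) between each deficiency and the control (y axis) for 24311 tested genes in falling order (x axis, log scale), with N, P and K deficiency from left to right; grey dots are genes and the diamond is RADIALIS. RADIALIS stands at place 6 in N and P deficiency and at place 644 in K deficiency.

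The genes nearest to RADIALIS in the N-deficient order had a wide range of levels in P deficiency. Just above it stood LOC109944895 with a difference of 4.66, LOC103653643 with 4.46 and LOC100284926, annotated as cysteine protease 1, a protein-degrading enzyme, with 4.39. LOC109944895 averaged 25.2 FPKM in N deficiency and 0.102 in P deficiency, against 0.0332 in the control. LOC103653643 averaged 76.8 FPKM in N deficiency and 9.90 in P deficiency, against 3.12 in the control. LOC100284926 averaged 32.7 FPKM in N deficiency and 1.13 in P deficiency, against 0.638 in the control. Just below stood LOC103641507 with 4.34, LOC100281643, annotated as flowering promoting factor-like 1, with 4.32, and LOC103649564 with 4.20. LOC103641507 averaged 52.6 FPKM in N deficiency and 17.2 in P deficiency, against 1.41 in the control. LOC100281643 averaged 33.0 FPKM in N deficiency and 0.633 in P deficiency, against 0.554 in the control. LOC103649564 was higher in each deficiency, at 51.1 FPKM in N, 19.9 in P and 15.3 in K deficiency, against 1.77 in the control.

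In the P-deficient order several neighbours split by library where RADIALIS did not. LOC103626044, 2 places above RADIALIS, had 14.5, 143 and 105 FPKM in P-deficient libraries 1_3, 4_6 and 7_9. LOC109941960, 1 place above, had 52.8, 474 and 360 FPKM there. LOC100284637, annotated as a lysM domain protein (a domain that binds chitin-like sugars), had 74.4, 557 and 467 FPKM there. For these genes library 1_3 was far below the others, whereas RADIALIS had 23.2 FPKM in that library. Not all neighbours split this way. LOC103639349, at place 3, had 25.1, 14.7 and 24.4 FPKM in the P-deficient libraries. LOC103633664, at place 7, had 111, 86.6 and 136 FPKM there. Without library 1_3 of P deficiency, RADIALIS moved to place 40 in that order, and over the 6 libraries left out in turn its place lay between 4 and 40. These examples were chosen after their values were seen.

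Few genes shared both the low control level and the high level in 2 deficiencies. Of the tested genes, 3197 averaged under 1 FPKM in the control, thresholds here being chosen after the values were seen. Of these, 6 averaged above 20 FPKM in N deficiency, 7 in P deficiency and 1 in K deficiency. RADIALIS was the 1 gene above 20 FPKM in both N and P deficiency. Since RADIALIS was selected on these same values, that is no finding. LOC103626139, the highest of the 6 in N deficiency, averaged 125 FPKM there and 1.60 in P deficiency, against 0.634 in the control. LOC100382065, annotated as UDP-glycosyltransferase 73D1, an enzyme that attaches sugars to small molecules, averaged 28.6 FPKM in P deficiency and 8.28 in N deficiency, against 0.998 in the control. The gene nearest to meeting both limits was LOC103639349, at 13.1 FPKM in N deficiency and 21.4 in P deficiency, against 0.288 in the control.

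**Figure D3:**
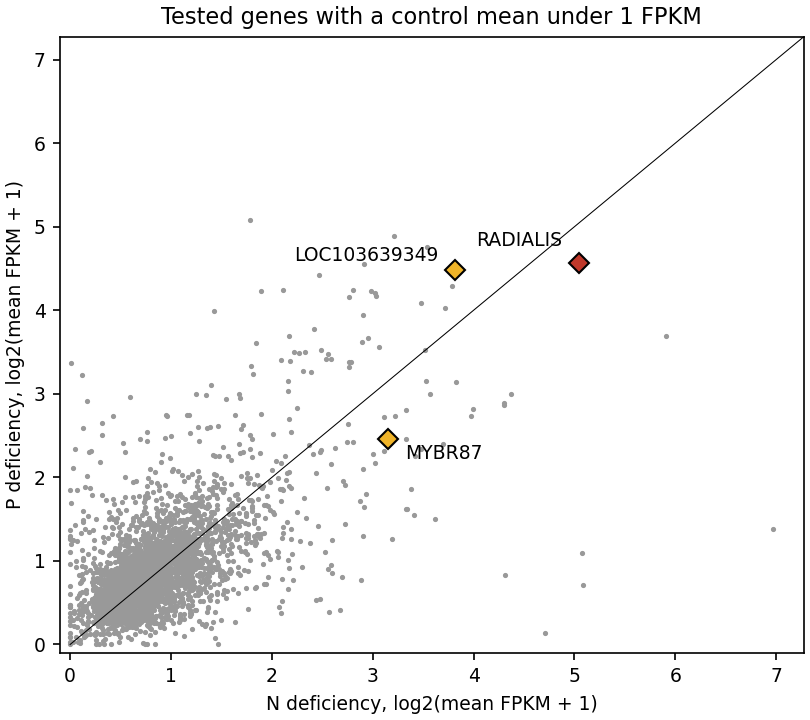
Level in N deficiency (x axis) and P deficiency (y axis), both as log2(mean FPKM + 1), of the 3197 tested genes that average under 1 FPKM in the control; each grey dot is a gene, the line marks equal levels, and the diamonds are RADIALIS, MYBR87 and LOC103639349. RADIALIS, at 32.0 FPKM in N and 22.7 FPKM in P deficiency, is the 1 gene of these above 20 FPKM in both. It was selected on these same values, and both limits were set after the values were seen.

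Among genes annotated with regulation of transcription, RADIALIS stood at or near the top in N and P deficiency. It had the largest difference from the control of the 1417 tested genes of this term in N deficiency, and the next were LOC103639349 with 3.45 and LOC103633664 with 2.87 on the log2(FPKM + 1) scale. In P deficiency it came second, after LOC103639349 with 4.10 and before LOC103633664 with 3.90. In K deficiency it took place 28. The largest differences of the term there were those of pco139297, annotated as bHLH7, with 1.79, LOC100285500, a CCT motif protein, with 1.79, and LOC100282608, annotated as myb-related protein Hv33, with 1.72. Of the 1416 other genes of the term, limma called 137 higher and 92 lower in N deficiency, 131 higher and 122 lower in P deficiency, and 61 higher and 28 lower in K deficiency. Of all 24311 tested genes, 2341 were called higher and 2268 lower in N deficiency (19.0% in all), 3169 higher and 2522 lower in P deficiency (23.4%), and 1174 higher and 946 lower in K deficiency (8.72%).

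The profile of RADIALIS over the 12 libraries was most like that of genes that, with the exception of LOC103639349, had far smaller differences. Likeness was measured as Pearson's r on log2(FPKM + 1), a description over 12 libraries in which the 4 group levels carry most of the variation. Of 24310 other tested genes, 56 reached r = 0.9, 7 reached 0.95 and 0 reached 0.98. The highest value was 0.962, for LOC103634867, which averaged 35.8 FPKM in N, 40.2 in P and 19.2 in K deficiency, against 13.3 in the control. LOC100217144 followed with r = 0.961 and 16.4, 14.4 and 8.93 FPKM in N, P and K deficiency, against 7.53 in the control. LOC100276833, a hypothetical protein, had r = 0.961 and umc1301 had r = 0.959.

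LOC100285317, described as a nodulin protein, had r = 0.957, with 22.8 FPKM in N, 25.2 in P and 9.22 in K deficiency, against 6.67 in the control. OFP29, of the ovate family of transcription factors, which are mostly known as repressors, had r = 0.954 and averaged 2.99, 3.26 and 0.9798 FPKM in N, P and K deficiency, against 0.608 in the control. LOC103639349 had r = 0.953, and was the 1 member of these 8 whose folds were of the size of those of RADIALIS, at 45.3 in N and 74.3 in P deficiency. It differed from RADIALIS in K deficiency, where it averaged 0.282 FPKM, against 0.288 in the control. LOC100501277, annotated as CHLOROPLAST IMPORT APPARATUS 2, a name given in Arabidopsis to a regulator of genes for protein import into chloroplasts, completed the 8 with r = 0.949. Membership of the 8 depended on the scale. On recovered reads, as log2(RPM + 0.1), LOC100276833 stood at place 76 (r = 0.904), LOC100501277 at 18, OFP29 at 14 and LOC100285317 at 9, whereas LOC103634867, umc1301, LOC100217144 and LOC103639349 took places 2 to 5.

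**Figure D4:**
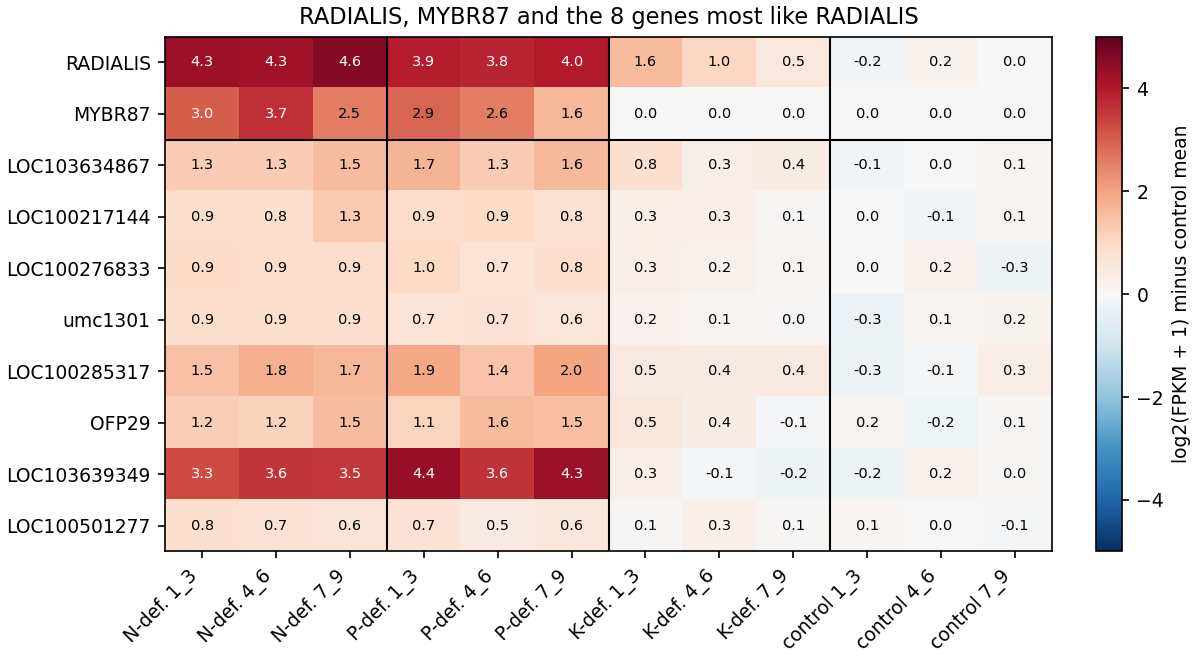
log2(FPKM + 1) of each library minus the control mean (colour and printed value) for RADIALIS, MYBR87 and the 8 genes most like RADIALIS in falling order of r (rows), with libraries of N, P and K deficiency and the control from left to right (columns). RADIALIS averages 4.37 in N and 3.90 in P deficiency and LOC103639349 averages 3.45 in N and 4.10 in P deficiency, above the other 7 genes of the 8 in every N- and P-deficient library.

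The strict order of the 4 groups was rare among all genes. For 0.917% of tested genes all 4 groups were free of overlap in some order, and for 0.0452%, which is 11 genes with RADIALIS included, every N-deficient library lay above every P-deficient, every P-deficient above every K-deficient and every K-deficient above every control library. RADIALIS had this order when it was chosen, so its place among them is no finding. The other 10 had smaller folds than RADIALIS in N and P deficiency, and in K deficiency 1 of them, LOC109940321, had a larger fold of 4.99, against 4.10 for RADIALIS. The widest N-deficient fold of the 10 was that of LOC109940321, at 6.47 FPKM in N, 3.30 in P and 1.94 in K deficiency, against 0.388 in the control, a 16.7-fold difference for N deficiency. LOC100192457, a putative transcription factor of the AP2/EREBP class, was 7.14-fold higher in N deficiency than in the control, at 120 against 16.8 FPKM. LOC100272444, a putative homeodomain-like transcription factor, was 3.55-fold higher. The smallest fold was the 1.53 of LOC103651370, a ubiquitin-conjugating enzyme. The remaining 6 were LOC100217019, LOC100275345, LOC100280511 (a receptor kinase annotated as associated with BRASSINOSTEROID INSENSITIVE 1), LOC100384615 (a putative arabinose 5-phosphate isomerase), LOC103647524 and LOC103649671.

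A search of the deposited names for relatives of RADIALIS and DIVARICATA found 1 other gene. Only symbols and descriptions were searched, and some listed genes have no description, so unnamed relatives would be missed. LOC103650973, annotated as transcription factor DIVARICATA-like, averaged 0.713 ± 0.196 FPKM in N, 0.638 ± 0.177 in P and 0.883 ± 0.460 in K deficiency, against 1.14 ± 0.301 in the control (SD, n = 3 each). It did not pass the test in any deficiency (0 of 1 called), with log2 differences of -0.32, -0.38 and -0.20 and adjusted p = 0.269, 0.156 and 0.565 by limma for N, P and K. Its profile had r = -0.62 with that of RADIALIS over the 12 libraries.

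MYBR87, annotated as a SANT/MYB protein, was named after its values were seen, and it is described with no test. Its FPKM was 7.19, 11.7 and 4.85 in N-deficient libraries 1_3, 4_6 and 7_9, and 6.52, 4.90 and 2.14 in P-deficient libraries, and it was listed at 0 in all 3 K-deficient and all 3 control libraries. Its recovered reads were 116, 191 and 96 in N deficiency and 103, 64 and 48 in P deficiency, against 0 in each K-deficient and each control library. With 0 reads set to a floor of 3 reads over a group, MYBR87 was at least 142-fold higher in N deficiency and at least 82.7-fold higher in P deficiency than in the control. Its profile had r = 0.932 with that of RADIALIS, place 14 among the other genes. Unlike RADIALIS, it had no read in K deficiency.

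Genes for nitrate uptake were read as a check of the N label. The high-affinity nitrate transporter genes nrt2 and nrt2.2 averaged 55.5 ± 6.21 and 33.1 ± 7.41 FPKM in N deficiency, 0.702 ± 0.219 and 0.634 ± 0.193 in P deficiency and 4.03 ± 1.42 and 3.54 ± 0.982 in K deficiency, against 2.35 ± 0.528 and 1.62 ± 0.208 in the control (SD, n = 3 each). NAR2.1, which encodes a partner protein of these transporters, averaged 320.2 ± 22.5 FPKM in N, 128 ± 52.4 in P and 131 ± 21.4 in K deficiency, against 104 ± 6.33 in the control. All 3 rose in N deficiency, by 4.09, 3.68 and 1.61 on the log2 scale. nrt2 passed there with adjusted p = 7.82e-07 (limma) and fell in P deficiency (adjusted p = 0.00982, limma), whereas RADIALIS was high in both. nrt2.2 also fell in P deficiency, with a log2 difference of -0.68 (adjusted p = 0.0273, limma), and was called higher in K deficiency too, by 0.78 (adjusted p = 0.0302, limma). Over the 12 libraries r with RADIALIS was 0.43 for nrt2, 0.44 for nrt2.2 and 0.63 for NAR2.1.

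The tables were also searched for regulators of the nitrogen response, in plants led by the NIN-like proteins (NLPs), transcription factors that switch on genes when nitrate is present. The search matched 9 genes, of which 3 are NLP genes by their annotation and 6 matched only as part of a longer word, such as chaperonin-like. Of the 9, limma called 3 higher and 2 lower in N deficiency, 2 higher and 1 lower in P deficiency, and 2 higher and 1 lower in K deficiency. Of all tested genes, 19.0% were called in N, 23.4% in P and 8.72% in K deficiency. The median log2 difference of the 9 was 0.17 in N, 0.17 in P and 0.03 in K deficiency, beside 0.04, 0.08 and 0.07 over all tested genes.

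All 3 NLP genes were called in N deficiency, in different directions. IDP64, annotated as Protein NLP6, fell to 0.929 ± 0.255 FPKM in N deficiency, against 24.6 ± 2.96 in the control (log2 difference -3.73, SE 0.15, adjusted p = 1.71e-07, limma). It averaged 17.6 ± 0.310 FPKM in P deficiency, which did not pass (adjusted p = 0.0501, limma), and 16.6 ± 2.95 in K deficiency, which did (adjusted p = 0.047, limma) but was lost in 8 of 14 alternatives. LOC100285205, NIN-like protein 1, averaged 7.85 ± 2.69 FPKM in N, 3.78 ± 0.805 in P and 4.63 ± 1.06 in K deficiency, against 1.96 ± 0.307 in the control. It rose in N deficiency by 1.55 on the log2 scale (adjusted p = 0.000577, limma), by 0.69 in P deficiency (adjusted p = 0.0421, lost in 8 of 14 alternatives) and by 0.92 in K deficiency (adjusted p = 0.0246, lost in 5 of 14). NLP8 averaged 2.69 ± 0.559 FPKM in N, 1.41 ± 0.232 in P and 1.89 ± 0.212 in K deficiency, against 0.608 ± 0.0933 in the control, and rose in all 3 (adjusted p = 0.000164, 0.0143 and 0.00382, limma), the P call being lost without control library 1_3. Over the 12 libraries r with RADIALIS was -0.69 for IDP64, 0.69 for LOC100285205 and 0.67 for NLP8.

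In direct comparisons between deficiencies, which bear on genes other than RADIALIS, limma called 11.3% of tested genes for N against P deficiency, 9.81% for N against K and 9.23% for P against K. IDP64 was lower in N than in P deficiency by a log2 difference of -3.28 (adjusted p = 4.44e-07, limma), and NLP8 was higher in N than in P deficiency by 0.61 (adjusted p = 0.0212, limma). No direct comparison was recomputed under the alternatives. RADIALIS itself had log2 differences of 0.47 for N against P, 3.32 for N against K and 2.85 for P against K, given with no test.

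The rule that chose RADIALIS did not use its position, so its neighbours in the genome were examined. In the RefSeq gene table for assembly Zm-B73-REFERENCE-NAM-5.0, used for gene order only, the 5 genes on each side were taken. Of these 10, 8 are listed in the deposited tables and 4 were tested, and LOC111589688 and LOC103630773 were not analysed here. Of the 4, limma called 0 higher and 1 lower in N deficiency, 1 higher and 1 lower in P deficiency, and 1 higher and 0 lower in K deficiency, beside the 19.0%, 23.4% and 8.72% of all tested genes called. The nearest listed neighbours were silent or nearly so. LOC100285902, a ZF-HD homeobox gene 2 places before RADIALIS, had 0 reads in all 12 libraries, and LOC103630774, 1 place after it, had 0, 1 and 2 reads in P-deficient libraries and 0 in the N-deficient, K-deficient and control libraries.

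LOC103630772, 3 places before RADIALIS, was the neighbour that was called higher. It would not have been tested without its P- and K-deficient libraries, the groups in which it was called. It had 3.65, 16.3 and 8.06 FPKM in P-deficient libraries 1_3, 4_6 and 7_9 and 3.11, 5.33 and 3.56 FPKM in K-deficient libraries, against 0.330, 0.355 and 0.927 FPKM in control libraries. In N deficiency it had 1 read in library 1_3 and 0 in the others, the group in which RADIALIS was highest. Its log2 difference was 2.57 in P deficiency (adjusted p = 0.000882, limma), 1.70 in K deficiency (adjusted p = 0.0173, lost in 4 of 14 alternatives) and -0.59 in N deficiency, which did not pass (adjusted p = 0.31, limma).

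The other tested neighbours did not share the RADIALIS profile either. LOC103630777, 4 places after it, averaged 0.0762 FPKM in N, 0.226 in P and 0.357 in K deficiency, against 0.887 in the control, and fell in N and P deficiency (adjusted p = 0.00619 and 0.0231, limma). It would not have been tested without its control libraries (1.22, 0.872 and 0.570 FPKM), the group in which it was highest. The N call was lost in 1 of 14 alternatives, a filter of 2 FPKM that leaves the gene untested, and the P call in 5 of 14. LOC100274123, a DNA glycosylase gene 4 places before RADIALIS, averaged 9.80 FPKM in N, 11.4 in P and 10.7 in K deficiency, against 10.2 in the control. LOC103630775, 2 places after it, averaged 9.84, 7.80 and 7.93 FPKM in N, P and K deficiency, against 7.998 in the control. Neither of these was called in any deficiency.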

How the data were processed

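Roots of 40-day-old maize gave 12 libraries in 4 groups of 3. The authors deposited 1 table for each deficiency against the control, made with DESeq per the table names. The aligner is not given in the sources used here, nor is the build or the annotation. Per the file headers, the deposited values per library are FPKM. The group means they deposited are a signal: reads divided by size factors, then averaged over a group. The deposited fold is a ratio of these means and the deposited log2 column its log2; the authors' p-values were not used. No column of values per library was left without a sample (0 columns).

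Whole reads per library were recovered from the deposited means, for 100% of detected genes in the control, 99.7% in N and in K deficiency and 99.5% in P deficiency. limma 3.58.1 in R 4.3.3 with an intensity trend was fitted to log2(FPKM + 1) of all 12 libraries, with group as the only term, for 24311 genes with at least 0.5 FPKM in at least 3 libraries, and adjusted by Benjamini-Hochberg at 0.05. The fits were first run on simulated counts with known changes, and the outcome is not given here. The changed genes in that simulation did not include genes with as few control reads as RADIALIS. Like-labelled libraries were not treated as pairs, since no label ties them to a shared plant, batch or day. Of 18 such pairs 10 correlated above 0.1, from -0.39 to 0.33, which does not settle whether they are pairs. Named genes were RADIALIS, the 8 most alike by r, 3 on each side of it in the N-deficient order, its tested neighbours, the DIVARICATA-like list, called members of the nitrogen list, and nrt2, nrt2.2 and NAR2.1; others are said to be chosen after values were seen or are members of a counted set. The gene and the lists were chosen with earlier results of these data known. Alternatives were pseudocounts of 0.1 and 10, other filters, scaling, threshold, replicate block, smaller fits, leaving out libraries, and limma-voom on recovered reads for genes reaching 10 reads in 3 libraries or more. Of the gene IDs, 87.4% were found in the RefSeq table. No sequence was used here.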

Additional observations from a re-analysis of the deposited data

Results flagged for a closer look

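Some genes named beside RADIALIS differed between deficiencies in a direct comparison (limma, log2 difference, all 12 libraries in the fit). In N against P deficiency, nrt2 was higher by 5.06 (adjusted p = 3.88e-07), nrt2.2 by 4.37 (4.44e-07), NAR2.1 by 1.39 (0.00559), LOC100285205 by 0.86 (0.0301), NLP8 by 0.61 (0.0212) and LOC103626266, a nitrogen-list match inside a longer word, by 0.44 (0.0352). IDP64 differed by -3.28 (4.44e-07) and the neighbouring gene LOC103630772 by -3.16 (0.000526). In N against K deficiency, nrt2 was higher by 3.53 (adjusted p = 4.7e-06, limma), nrt2.2 by 2.91 (7.92e-06), NAR2.1 by 1.30 (0.00696) and LOC103626266 by 0.45 (0.034). IDP64 differed by -3.19 (8.08e-07), LOC100192520, also matched inside a word, by -2.67 (0.000131) and LOC103630772 by -2.29 (0.00306). In P against K deficiency, LOC100192520 differed by -2.73 (adjusted p = 0.000351, limma), nrt2 by -1.53 (0.00239) and nrt2.2 by -1.46 (0.00178). LOC103630772 would not have been tested without its P- and K-deficient libraries, nor LOC100192520 without its K-deficient and control libraries, the groups in which each was high. RADIALIS was not tested, and groups of 3 libraries were not examined for single outlying values. The alternatives were run only against the control, so how far these direct calls depend on the processing was not tested.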

How the results depend on the processing

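Of 237 recomputed values over 18 results, 183 stayed close to the reported value and 0 reversed. Only the RADIALIS log2 differences, with 10 alternatives for each deficiency, have a sign that can reverse. The other results are places or counts of genes called, which cannot. The RADIALIS log2 differences in N, P and K deficiency against the control were 5.57, 5.08 and 1.79 with a pseudocount of 0.1, 1.98, 1.62 and 0.23 with 10, and 5.52, 5.07 and 1.65 by limma-voom on recovered reads, an alternative chosen after seeing the data. Its place was 366 in K deficiency with a pseudocount of 0.1, 27, 81 and 3239 in N, P and K with 10, and 13 in N and 11 in P by limma-voom. Leaving out 1 library, its place ranged 5 to 10 in N, 4 to 40 in P and 387 to 1309 in K deficiency. Genes called numbered 4609, 5691 and 2120 in N, P and K deficiency; at a threshold of 0.01 they were 2366, 2075 and 829, and in the fit of 6 libraries 3304 in P. Leaving out 1 library gave 2765 to 4411 in N, 2397 to 6306 in P and 987 to 2329 in K deficiency, lowest in all 3 without control library 1_3. The replicate block gave 4536, 5556 and 1938 and changed no count by over 1.5 times; 4 of 12 libraries correlated best with their own label.

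Neighbouring genes called in N deficiency were 2 with a pseudocount of 0.1 and 0 with a filter of 2 FPKM; in P deficiency 1 with that filter, in the fit of 6 libraries and at 0.01; in K deficiency 0 with a pseudocount of 10 and at 0.01. Leaving out 1 library gave 1 to 2 in N, 1 to 2 in P and 0 to 1 in K deficiency. The nitrogen list had 1 gene called in P and 1 in K deficiency at 0.01, and 1 to 3 in each without 1 library. It had 4 called in P deficiency with a filter of 2 FPKM, with scaling and by limma-voom, and 4 in K deficiency by limma-voom. The DIVARICATA-like list had 0 called in each of 14 alternatives. Counts over the lists were not recomputed without a filter, whereas the calls of their single members were. The cause of these shifts was not tested. RADIALIS in the control rests on 32 reads, which limits every fold against it.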
